A study of Mus musculus with 18 samples.

Results

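The 10 genes described here, Atf3, Atf4, Ddit3, Chac1, Trib3, Asns, Hspa5, Xbp1, Ppp1r15a and Dnajb9, mark the integrated stress response and the unfolded protein response, and were followed through B16F10 tumors treated with free or vesicle-borne STING agonist. They were chosen by name, as 10 of the 50600 gene rows of the table, with earlier results of these data known. All 10 passed the filter on low counts that left 16927 genes in the test. B16F10 is a mouse melanoma cell line, and each tumor grew from cells injected under the skin of the right flank of a C57BL/6 mouse. The methods of the study give female mice of 5 to 6 weeks. Tumors were injected directly (IT, intratumorally) with PBS, with unloaded EVs, with free CDN2 or with exoCDN2, which is CDN2 loaded into EVs. CDN2, labelled CL656, is a synthetic cyclic dinucleotide that activates STING, and the EVs were made by HEK293 cells, a human line, engineered for high PTGFRN, a glycoprotein of the EV surface. RNA was taken 24 h after the last injection. Free CDN2 was given at 20 or 100 µg and exoCDN2 at 0.1 µg of loaded compound. One schedule was a single dose of PBS, of unloaded EVs, of either amount of CDN2 or of exoCDN2. The other was 2 doses, 3 days apart, of PBS, of the smaller amount of CDN2 or of exoCDN2. A ninth group received 2 doses of CDN2 in an amount that the labels do not give, and was compared only with PBS after 2 doses. Every group held 2 tumors, 18 in all, so every p-value measures the spread between these tumors only. That spread was estimated for each gene over all groups of a fit together, not from the compared tumors alone. Free CDN2 and exoCDN2 differed in the amount of compound as well as in the carrier, so their values are not a comparison at a matched dose. No group received 2 doses of unloaded EVs, so carrier and agonist cannot be told apart after 2 doses of exoCDN2. Between 2 groups of 2 tumors that do not differ, values without overlap arise with a probability of 0.333.

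Cells under stress phosphorylate the translation factor eIF2α through 4 kinases that sense unfolded protein in the ER (PERK), double-stranded RNA (PKR), amino acid shortage (GCN2) and heme or mitochondrial stress (HRI). General translation then falls, while the mRNA of the transcription factor ATF4 is translated more, and ATF4 with its partners switches on genes of amino acid supply and of stress signalling, among them the 4 regulators Ddit3 (CHOP), Atf3, Trib3 and Chac1. Ppp1r15a encodes GADD34, which brings a phosphatase back to eIF2α and ends the response. The unfolded protein response has further arms through IRE1, which splices Xbp1 mRNA, and ATF6, and these raise ER chaperones such as Hspa5 (BiP) and Dnajb9 (ERdj4). Gene counts show neither the translation of ATF4 nor the splicing of Xbp1, so only the RNA level of both genes is given here. STING itself sits in the ER membrane, and interferon signalling induces PKR (Eif2ak2).

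Total expected counts lay between 21608895 and 65983630 per tumor. The markers of melanoma cells, summed over 7 genes of which none was at 0, stood between 19910 and 25110 CPM (counts relative to library size) in 14 tumors, at 15070 and 16210 in those given 2 doses of exoCDN2, and at 7409 and 12880 in those given 2 doses of CDN2 (20 µg). The pair of tumors given 2 doses of CDN2 (20 µg) stood apart from each other, since 13.96% of the tested genes differed more than 2-fold between them, against 0.13% to 3.285% within the other groups. The first of them had the lowest total and a summed level of 6 neutrophil markers of 870.0 CPM, against 197.6 in the second and 1.55 to 1.98 in PBS after 2 doses. Values without its first tumor are therefore given beside the results that rest on this group. In RNA from whole tumors, fewer cells of a type and less RNA per cell cannot be told apart. All levels below are TMM-scaled CPM, and they are compared between genes only per kilobase of exon.

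The promoters of the 10 genes were searched for the sequences that the factors of these pathways are known to recognise, because some of the genes changed together and others did not. RefSeq (GRCm38.p6) gave 1 window for each of the 10 genes, from 250 bases before to 50 bases after the start site, whose own position is counted as 0. Both strands were searched for the ATF4 composite element TGATGNAA, the ER stress element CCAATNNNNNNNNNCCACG, the element TGACGTGG of the unfolded protein response, the cyclic AMP response element TGACGTCA and an interferon-type element (GAAA, any 2 bases, GAAA). The shorter cores CCACG and TGACG were also searched, which makes 7 patterns. CCACG lies inside the ER stress element and, on the reverse strand, inside TGACGTGG, and TGACG lies inside TGACGTGG and TGACGTCA. The windows of 4 of the genes are printed 5′ to 3′ on the strand of the gene, with matches to the 5 longer patterns in capitals: Atf3 and Ppp1r15a because their RNA rose after single doses, Chac1 because it rose only with the larger amount of CDN2, and Hspa5 as the chaperone whose level stayed nearly flat. The RefSeq start of Atf3 lies inside the gene as GENCODE draws it. Atf3 is the window chr1:191183284-191183583 on the minus strand, Ppp1r15a chr7:45526219-45526518 on the minus strand, Chac1 chr2:119350992-119351291 on the plus strand and Hspa5 chr2:34771840-34772139 on the plus strand.
Atf3: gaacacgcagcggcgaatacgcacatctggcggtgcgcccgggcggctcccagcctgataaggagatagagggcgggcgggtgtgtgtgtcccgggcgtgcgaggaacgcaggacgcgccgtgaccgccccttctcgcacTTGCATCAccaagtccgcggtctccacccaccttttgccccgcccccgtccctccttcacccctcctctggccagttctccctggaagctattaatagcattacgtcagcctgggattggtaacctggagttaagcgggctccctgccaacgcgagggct
Ppp1r15a: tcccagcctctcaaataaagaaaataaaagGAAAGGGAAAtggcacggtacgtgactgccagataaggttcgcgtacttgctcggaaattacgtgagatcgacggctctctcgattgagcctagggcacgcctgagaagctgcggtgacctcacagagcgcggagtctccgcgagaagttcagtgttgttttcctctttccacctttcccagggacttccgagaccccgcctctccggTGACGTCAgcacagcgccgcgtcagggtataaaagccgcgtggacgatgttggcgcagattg
Chac1: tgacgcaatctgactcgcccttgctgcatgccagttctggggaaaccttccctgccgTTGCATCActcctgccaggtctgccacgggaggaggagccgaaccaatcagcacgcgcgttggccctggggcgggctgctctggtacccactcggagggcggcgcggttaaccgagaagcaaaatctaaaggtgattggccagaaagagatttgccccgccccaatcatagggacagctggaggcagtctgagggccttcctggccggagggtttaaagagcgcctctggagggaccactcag
Hspa5: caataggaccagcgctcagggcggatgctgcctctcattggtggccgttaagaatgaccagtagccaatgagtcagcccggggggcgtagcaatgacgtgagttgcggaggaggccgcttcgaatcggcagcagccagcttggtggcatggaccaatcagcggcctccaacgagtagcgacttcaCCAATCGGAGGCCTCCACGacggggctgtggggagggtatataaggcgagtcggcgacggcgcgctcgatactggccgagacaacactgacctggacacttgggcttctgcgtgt

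In Atf3 the capitals mark the ATF4 composite element on the reverse strand, at positions -110 to -103, and in Chac1 the same element on the reverse strand at positions -193 to -186. Asns had it at -23 to -16 on the forward strand and Trib3 at 14 to 21 on the reverse strand. The element was thus found in 4 of the 10 windows, against 3.97% of all 32851 promoter windows of that length. Hspa5 held an ER stress element at -65 to -47, a sequence present in 0.119% of all windows. Ppp1r15a held the cyclic AMP response element at -12 to -5, found in 1.79% of all windows, and the interferon-type element at -220 to -211, found in 3.44%. The element TGACGTGG, in 0.676% of all windows, was in none of the 10. Ddit3, Atf4, Xbp1 and Dnajb9 had no match to the 5 longer patterns in these windows. The core CCACG was in 6 of the 10 windows, against 32.8% of all windows, and TGACG in 8 of the 10, against 20.8%. A match describes letters and was not tested as a binding site. The genes were chosen as known genes of these pathways, and the patterns as those of the pathway factors. More matches than in all windows may thus follow from the choice of genes and are not a result of these data.

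**Figure D1:**
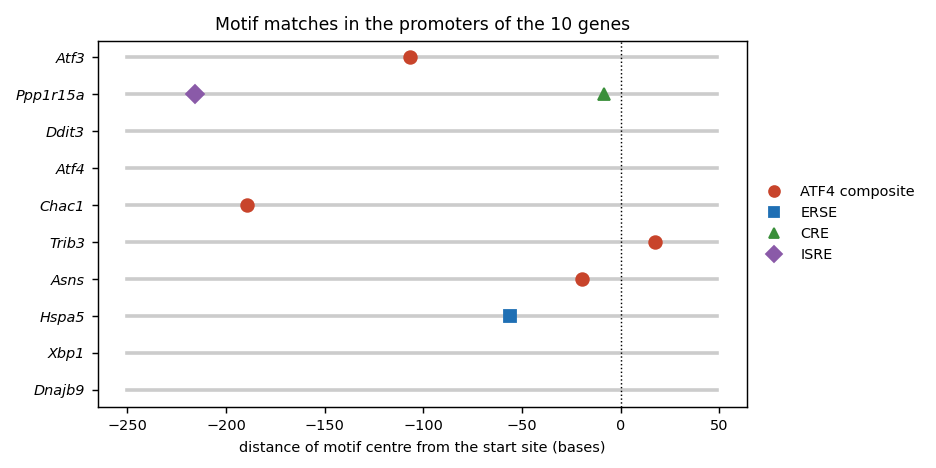
Position of motif matches in the 300-base promoter windows of the 10 genes; the horizontal axis gives the distance of the motif centre from the start site in bases, each grey line is one window, and each symbol one match. The ATF4 composite element is present in Atf3, Chac1, Trib3 and Asns, the ER stress element (ERSE) in Hspa5, and the cyclic AMP (CRE) and interferon-type (ISRE) elements in Ppp1r15a.

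Per kilobase of exon, the chaperone Hspa5 had the highest RNA level of the 10 genes in every group, with group means of 210.7 to 273.1 CPM per kilobase. Atf4 followed at 74.88 to 206.0. Asns stood between 42.8 and 73.97, Xbp1 between 30.44 and 39.9 and Dnajb9 between 8.62 and 17.1. Atf3 had the widest range of all, from 3.59 CPM per kilobase in PBS after 2 doses to 74.39 after 1 dose of CDN2 (20 µg). Its highest tumor stood 25.99 times above its lowest. The same ratio was 15.68 for Ppp1r15a and 9.37 for Ddit3, but 1.92 for Asns, 1.56 for Xbp1 and 1.49 for Hspa5.

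**Figure D2:**
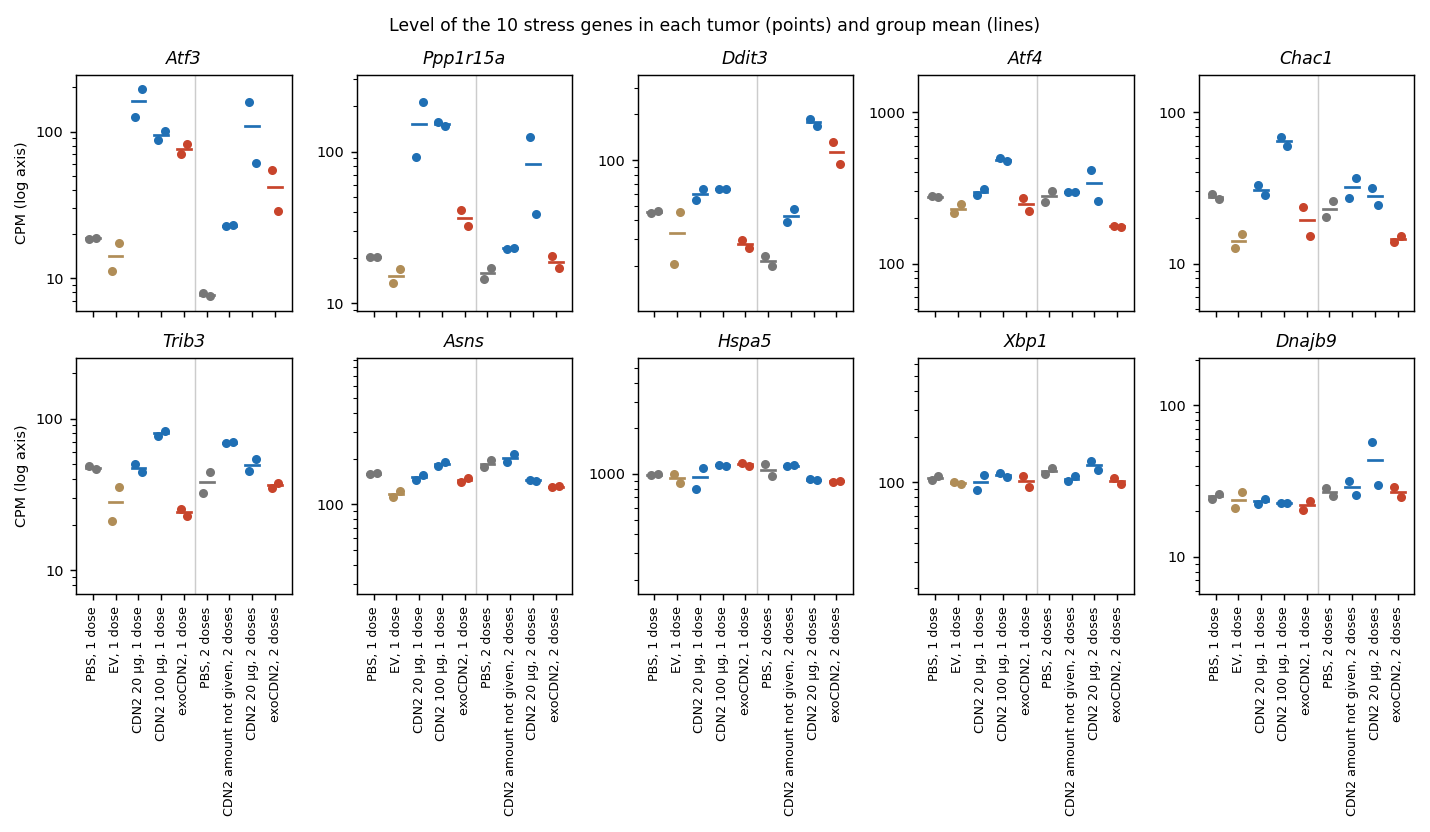
CPM (log axis, a separate range for each gene) of the 10 genes in each of the 18 tumors, with 1 point per tumor and a line at the mean of the 2 tumors of a group; groups right of the grey line received 2 doses. Atf3 spans 7.53 to 195.7 CPM, Ppp1r15a 13.55 to 212.5 and Ddit3 19.94 to 186.9, while Hspa5 stays between 798.5 and 1187 CPM.

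The number of the 10 genes that changed was small in every comparison. A call needed a ratio above 2 together with a p from edgeR's quasi-likelihood test that stayed under 0.05 once adjusted over all tested genes by Benjamini and Hochberg's method. The share of all tested genes called in the same direction is given as background. After 1 dose against PBS, 2 of the 10 rose with CDN2 (20 µg), where 2.26% of all genes rose, 3 of 10 with CDN2 (100 µg), where 1.82% rose, and 1 of 10 with exoCDN2, where 2.2% rose. None of the 10 was called lower in these comparisons, in which 0.886%, 0.62% and 0.425% of all genes fell. After 2 doses, 3 of 10 rose with CDN2 (20 µg) against a background of 20.0%, and 2 of 10 with exoCDN2 against 8.87%. None fell, while 10.6% and 2.48% of all genes did. The count after 2 doses of CDN2 thus lay near what all genes showed, and the counts at 1 dose rest on very few genes. The fit gives all groups the same spread of a gene, although the pair given 2 doses of CDN2 (20 µg) varied more than the others. With only the groups compared in the fit, the calls among all genes went from 5177 to 3060 for this group against PBS. Between exoCDN2 and this group they went from 3279 to 30.

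The comparisons with PBS after 1 dose share the same pair of PBS tumors, and those after 2 doses share another pair. The median log2 fold change of the 10 genes after 1 dose was 0.05 with CDN2 (20 µg), 0.63 with CDN2 (100 µg) and -0.14 with exoCDN2. After 2 doses it was 0.33 with CDN2 (20 µg), 0.1 without the first tumor of that group, and -0.15 with exoCDN2. The median over all genes tested lay between -0.037 and 0.032 in each of the 12 comparisons of 2 groups. Unloaded EVs against PBS gave no call among the 10, nor among all genes (0.0% higher and 0.0% lower), by edgeR's quasi-likelihood test, with 3 of the 10 at an unadjusted p under 0.05 and none called by DESeq2. Among all genes, 540 were at an unadjusted p under 0.05, DESeq2 called 34, and edgeR without the filter on low counts called 227.

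**Figure D3:**
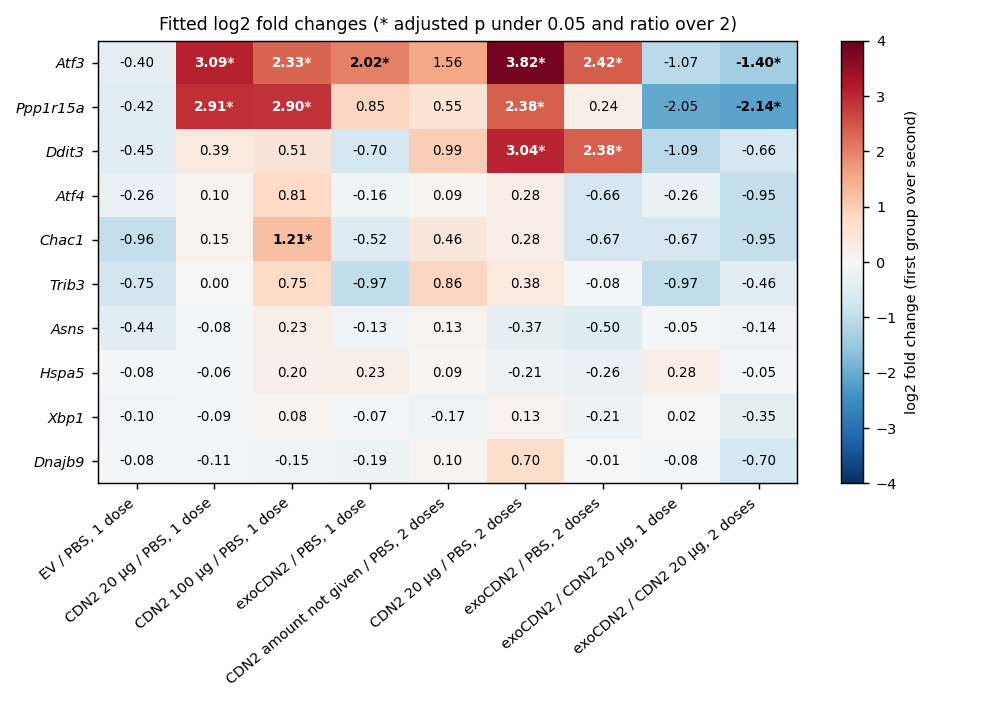
Fitted log2 fold changes of the 10 genes (vertical axis) in 9 comparisons (horizontal axis), with red for higher and blue for lower in the first-named group; an asterisk marks a call. The asterisks fall on Atf3, Ppp1r15a and Ddit3, with 1 for Chac1, and the lower block of Hspa5, Xbp1 and Dnajb9 has none.

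Atf3 rose in all 5 comparisons of a known amount of agonist with PBS. It encodes a transcription factor that many stresses induce within hours, inside and outside the eIF2α pathway (chromosome 1, 191170296 to 191218039, minus strand, GRCm38). Its levels were 18.66 and 18.94 CPM in PBS after 1 dose and 11.23 and 17.34 with unloaded EVs. They were 124.8 and 195.7 with CDN2 (20 µg), 88.24 and 101.0 with CDN2 (100 µg), and 70.64 and 82.02 with exoCDN2. Every agonist-treated tumor lay above every PBS and EV tumor. The log2 fold change against PBS was 3.09 (SE 0.43, adjusted p = 0.0017) with CDN2 (20 µg), 2.33 (SE 0.42, adjusted p = 0.011) with CDN2 (100 µg) and 2.02 (SE 0.41, adjusted p = 0.019) with exoCDN2 by edgeR's quasi-likelihood test. Against unloaded EVs, exoCDN2 gave 2.42 (SE 0.42, edgeR adjusted p = 0.0069).

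The single-dose calls of Atf3 were not equally firm. For exoCDN2 against PBS, leaving out any 1 of the 4 tumors kept the log2 fold change between 1.91 and 2.13 but moved edgeR's adjusted p to between 0.066 and 0.18. For CDN2 (100 µg) the call was also lost without either PBS tumor or without the second treated tumor (log2 fold change 2.23 to 2.34, edgeR adjusted p 0.063 to 0.14), whereas for CDN2 (20 µg) it held without each of the 4. Against unloaded EVs, exoCDN2 lost the call without the first EV tumor (2.14, edgeR adjusted p = 0.067).

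After 2 doses, Atf3 stood at 7.94 and 7.53 CPM in PBS, 157.9 and 61.11 with CDN2 (20 µg), and 54.38 and 28.78 with exoCDN2. The PBS tumors were the lowest of all 18, and the second CDN2 tumor lay close to the first exoCDN2 tumor. The log2 fold change was 3.82 (SE 0.45, adjusted p = 8.5e-05) with CDN2 (20 µg) and 2.42 (SE 0.43, adjusted p = 0.0023) with exoCDN2 by edgeR's quasi-likelihood test. With any 1 tumor left out, the values were 2.97 to 4.3 for CDN2 and 1.9 to 2.81 for exoCDN2. The lowest of these, 2.97 and 1.9, were obtained without the first tumor of each treated group, and the highest without the second. Because Atf3 was lower in PBS after 2 doses than after 1 (log2 fold change -1.28, SE 0.41, edgeR adjusted p = 0.23), pooling all 4 PBS tumors gave 3.05 and 1.65, both still called.

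Ppp1r15a rose with free CDN2 and was not called with exoCDN2 after either number of doses. It encodes GADD34, the stress-induced arm of the eIF2α phosphatase (chromosome 7, 45522916 to 45526268, minus strand). After 1 dose its levels were 20.32 and 20.27 CPM in PBS, 13.55 and 16.69 with unloaded EVs, and 41.12 and 32.13 with exoCDN2. With free CDN2 they were 91.89 and 212.5 at 20 µg and 156.5 and 146.7 at 100 µg. The tumors given free CDN2 all lay above those given exoCDN2, which in turn lay above PBS. The log2 fold change against PBS was 2.91 (SE 0.48, adjusted p = 0.0048) at 20 µg and 2.90 (SE 0.48, adjusted p = 0.007) at 100 µg, and 0.85 (SE 0.45, adjusted p = 0.40) with exoCDN2 by edgeR's quasi-likelihood test. Against unloaded EVs, exoCDN2 gave 1.28 (SE 0.46, edgeR adjusted p = 0.19), not called, with both exoCDN2 tumors above both EV tumors. The direct comparison of exoCDN2 with CDN2 (20 µg) gave -2.05 (SE 0.46, edgeR adjusted p = 0.057), which missed the threshold. The call at 20 µg was lost without the second CDN2 tumor (2.18) or without either PBS tumor, and that at 100 µg without either PBS tumor, with edgeR adjusted p of 0.05 to 0.076 and 0.10 to 0.11.

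After 2 doses Ppp1r15a stood at 14.47 and 17.08 CPM in PBS and at 20.35 and 16.95 with exoCDN2, and these groups overlapped. With CDN2 (20 µg) the tumors read 125.4 and 38.98, both above all others of that schedule. The log2 fold change was 2.38 (SE 0.47, adjusted p = 0.0016) with CDN2 and 0.24 (SE 0.45, adjusted p = 0.76) with exoCDN2 by edgeR's quasi-likelihood test. Without the first CDN2 tumor the first value was 1.29 and without the second it was 2.94. Between the agents, 2 of the 10 genes were lower with exoCDN2 than with CDN2 after 2 doses, against 12.0% of all genes lower and 7.34% higher. They were Ppp1r15a (log2 fold change -2.14, SE 0.47, adjusted p = 0.006 by edgeR) and Atf3 (-1.40, SE 0.41, adjusted p = 0.02 by edgeR). Both calls were lost without the first CDN2 tumor, where the values were -1.07 and -0.56, and without the second exoCDN2 tumor, where they were -1.99 and -0.99. They were also lost when only the 4 tumors compared were fitted, a fit that called 30 of all genes. Atf4 (-0.95, SE 0.19), Chac1 (-0.95, SE 0.22) and Dnajb9 (-0.70, SE 0.25) had edgeR adjusted p of 0.0049, 0.0081 and 0.043 but missed the needed ratio. Without the first CDN2 tumor, Chac1 was at -0.76 and Dnajb9 at -0.15. All 10 genes were below 0, with a median of -0.68, and -0.56 without that tumor, against 0.032 over all genes.

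Ddit3 separated the second dose from the first for CDN2 (20 µg) and exoCDN2. It encodes CHOP, a transcription factor tied to cell death under lasting ER stress (chromosome 10, 127290774 to 127296288, plus strand). After 1 dose its levels were 44.58 and 46.29 CPM in PBS, 20.74 and 45.61 with unloaded EVs, and 54.32 and 64.55 with CDN2 (20 µg). They were 64.08 and 64.91 with CDN2 (100 µg) and 29.64 and 26.15 with exoCDN2. The CDN2 tumors lay slightly above PBS and the exoCDN2 tumors below it, but no fold change was called. The values were 0.39 (SE 0.28), 0.51 (SE 0.28) and -0.70 (SE 0.28) on the log2 scale, with edgeR adjusted p of 0.57, 0.46 and 0.24.

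After 2 doses Ddit3 read 23.39 and 19.94 CPM in PBS, 186.9 and 168.5 with CDN2 (20 µg), and 130.7 and 94.78 with exoCDN2. The 4 tumors of these agonist groups lay at 94.78 CPM or higher, above all 10 tumors given 1 dose. The tumors given 2 doses of CDN2 in an amount not given, at 38.87 and 47.27 CPM, lay within the range of those given 1 dose. The log2 fold change was 3.04 (SE 0.30, adjusted p = 3.4e-05) with CDN2, an 8.22-fold ratio, and 2.38 (SE 0.30, adjusted p = 0.00026) with exoCDN2, a 5.20-fold ratio, by edgeR's quasi-likelihood test. Without each tumor in turn, the log2 values were 2.91 to 3.14 and 2.13 to 2.59. The 2 tumors given CDN2 agreed on Ddit3 to a degree that they did not on Atf3 or Ppp1r15a. PBS tumors had less Ddit3 after 2 doses than after 1 (log2 fold change -1.07, SE 0.28, edgeR adjusted p = 0.12), and with all 4 PBS tumors pooled the values were 2.41 and 1.75, both called.

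The change at the second dose was compared with the change at the first, each relative to its own PBS tumors. Of the 10 genes, only Ddit3 was called in this test, for CDN2 (20 µg) at 2.65 (SE 0.40, adjusted p = 0.0027) and for exoCDN2 at 3.08 (SE 0.41, adjusted p = 0.0013) on the log2 scale by edgeR's quasi-likelihood test. Among all genes, 11.7% were higher and 5.16% lower at the second dose of CDN2, and 5.12% and 1.7% at the second dose of exoCDN2. Atf3 gave 0.73 (SE 0.57) and 0.40 (SE 0.57), whose signs turned (-0.13 in each case) without the first tumor given 2 doses of that agent. Ppp1r15a gave -0.52 (SE 0.63) and -0.61 (SE 0.64). For CDN2 the value of Ppp1r15a was -1.63 and called (edgeR adjusted p = 0.039) without the first tumor given 2 doses, and above 0 without the second tumor of either CDN2 group. No direction can be given for Atf3 and Ppp1r15a between the doses.

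Atf4 and its targets in amino acid metabolism moved less. Atf4 encodes the central transcription factor of the pathway (chromosome 15, 80255184 to 80257541, plus strand). Its RNA stood at 279.2 and 275.4 CPM in PBS after 1 dose, 216.0 and 246.9 with unloaded EVs, and 282.9 and 312.8 with CDN2 (20 µg). It was 498.8 and 472.9 with CDN2 (100 µg) and 271.6 and 224.0 with exoCDN2. The 2 tumors given 100 µg were the highest of all 18. Their log2 fold change of 0.81 (SE 0.19, adjusted p = 0.046 by edgeR) was under the limit on the ratio, as was the -0.66 (SE 0.19, adjusted p = 0.034 by edgeR) of exoCDN2 after 2 doses. After 2 doses the levels were 257.2 and 302.1 in PBS, 418.2 and 260.1 with CDN2 (20 µg), and 178.7 and 174.4 with exoCDN2, the lowest of all tumors.

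Chac1 was the 1 gene called with CDN2 (100 µg) and with no other treatment. It encodes an enzyme that breaks down glutathione (chromosome 2, 119351229 to 119354381, plus strand). After 1 dose it read 28.79 and 26.64 CPM in PBS, 12.62 and 15.79 with unloaded EVs, and 33.16 and 28.51 with CDN2 (20 µg). It read 68.69 and 59.87 with CDN2 (100 µg) and 23.49 and 15.23 with exoCDN2. The 2 tumors given 100 µg stood well above the other 16. The log2 fold change against PBS was 1.21 (SE 0.22, adjusted p = 0.012) by edgeR, and the call was lost without either PBS tumor or the first treated tumor (1.11 to 1.27). Against CDN2 (20 µg) the value was 1.06 (SE 0.22, edgeR adjusted p = 0.054). None of the 10 genes was called between the amounts of CDN2 by edgeR's quasi-likelihood test, against 0.23% of all genes higher and 0.224% lower at 100 µg, with 4 of the 10 at an unadjusted p under 0.05 and 1 called by DESeq2. After 2 doses Chac1 was at 20.19 and 25.96 CPM in PBS, 31.56 and 24.54 with CDN2 (20 µg), and 13.91 and 15.14 with exoCDN2, with no call.

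Trib3 encodes a pseudokinase that ATF4 and CHOP induce (chromosome 2, 152337422 to 152344032, minus strand). After 1 dose it stood at 48.65 and 46.35 CPM in PBS, 21.22 and 35.39 with unloaded EVs, 50.33 and 44.55 with CDN2 (20 µg), 76.65 and 83.24 with CDN2 (100 µg), and 25.46 and 22.89 with exoCDN2. The exoCDN2 tumors lay below both PBS tumors, with a log2 fold change of -0.97 (SE 0.22, adjusted p = 0.034 by edgeR) that did not reach the limit on the ratio. Against unloaded EVs, exoCDN2 gave -0.23 (SE 0.22, edgeR adjusted p = 0.75), and these groups overlapped. The same pattern of the highest values at 100 µg was seen as in Atf4 and Chac1, at 0.75 (SE 0.22, edgeR adjusted p = 0.10). After 2 doses the range over PBS, CDN2 (20 µg) and exoCDN2 tumors was 32.11 to 54.0 CPM.

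Asns encodes asparagine synthetase, which makes asparagine from aspartate (chromosome 6, 7675169 to 7693254, minus strand). It varied within 111.6 to 213.8 CPM over all tumors. After 2 doses it stood at 175.7 and 195.2 in PBS, 145.3 and 141.7 with CDN2 (20 µg), and 129.2 and 132.3 with exoCDN2. The treated tumors lay below PBS without overlap, at log2 fold changes of -0.37 (SE 0.11, adjusted p = 0.017 by edgeR) and -0.50 (SE 0.11, adjusted p = 0.0084 by edgeR), neither past the limit on the ratio. Unloaded EVs against PBS gave -0.44 (SE 0.11) for Asns, -0.96 (SE 0.22) for Chac1 and -0.75 (SE 0.22) for Trib3, with edgeR adjusted p of 0.69 or more. The fold changes of all 10 genes with unloaded EVs were below 0, with a median of -0.41 on the log2 scale, and none was called.

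The genes of the chaperone arms stayed nearly level. Hspa5 encodes BiP, the main Hsp70 chaperone of the ER (chromosome 2, 34771970 to 34777547, plus strand), and its log2 fold change lay between -0.26 and 0.30 in the 12 comparisons of 2 groups, with no edgeR adjusted p under 0.26. Xbp1 encodes the factor that IRE1 activates by splicing (chromosome 11, 5520659 to 5525893, plus strand). It ranged from 88.35 to 138.3 CPM, with log2 fold changes of -0.35 to 0.17 and no edgeR adjusted p under 0.074. Dnajb9 encodes a co-chaperone of BiP that the IRE1 and XBP1 arm induces (chromosome 12, 44205559 to 44210326, minus strand). It lay between 20.52 and 31.91 CPM in 17 of the tumors and at 57.58 in the first tumor given 2 doses of CDN2 (20 µg). That group gave a log2 fold change of 0.70 (SE 0.25, adjusted p = 0.034 by edgeR), below the limit on the ratio. The value was 0.13 without this tumor and 1.05, then called, without the other.

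Reads of 3 of the genes cannot be assigned with certainty, because annotated exons of other genes overlap theirs on the opposite strand and the strand setting of the counting is not given in the sources used here. Ddit3 overlaps Mars, a tRNA synthetase gene, and Gm4189, Ppp1r15a overlaps Tulp2, and Dnajb9 overlaps the microRNA gene Mir5627. Mars was at 29.26 to 90.06 CPM, and its log2 fold change after 2 doses was -0.90 with CDN2 (20 µg) and -0.53 with exoCDN2, opposite in sign to Ddit3. Tulp2 did not exceed 6.22 CPM, Gm4189 did not exceed 0.146 CPM, and Mir5627 had 0 counts.

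The wider pathway was followed through lists of other genes. Of 10 further regulators of the integrated stress response, none was called after 1 dose of CDN2 (20 µg), CDN2 (100 µg) or exoCDN2. After 2 doses of CDN2 (20 µg), 6 rose and 1 fell. In that comparison 20.0% of all genes rose and 10.6% fell, which is the background for every list below, and 8.87% and 2.48% did after 2 doses of exoCDN2. Those with the smallest p-values were Stc2, a secreted glycoprotein (log2 fold change 5.90), Cebpb, a transcription factor that dimerises with ATF4 and CHOP (4.28), and Nupr1, a stress-induced chromatin protein (3.70), while Fgf21, a stress-responsive hormone, fell by 3.11. Without the first tumor of the group, 5 of the 10 were called higher and none lower. After 2 doses of exoCDN2, Stc2 rose (2.19) and Fgf21 fell (-3.13). Against CDN2, exoCDN2 had 6 of these 10 called lower, and 3 without that first CDN2 tumor.

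Genes of amino acid synthesis, uptake and tRNA charging that ATF4 drives gave 26 tested members. None was called after 1 dose of an agonist, with medians of 0.16 on the log2 scale with CDN2 (100 µg) and -0.12 with exoCDN2. After 2 doses of CDN2 (20 µg), 1 rose, the cystine transporter Slc7a11 (1.04), and 4 fell, among them the amino acid transporters Slc38a2 (-1.26) and Slc7a1 (-1.44) and the cystathionine lyase Cth (-1.33). Without the first tumor of the group, none was called higher and 3 lower, and Slc7a11 itself stood at 45.86 and 17.67 CPM against 21.04 and 9.70 in PBS, groups that overlap. After 2 doses of exoCDN2, 3 fell and none rose: the serine synthesis enzymes Phgdh (-1.29) and Psat1 (-1.07), and Cth (-1.52). The median of the list after 2 doses was -0.44 with CDN2 (20 µg), -0.31 without the first tumor of that group, and -0.26 with exoCDN2.

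Of 15 ER chaperones and folding enzymes outside the 10 genes, none was called after 1 dose of an agonist or after 2 doses of exoCDN2. After 2 doses of CDN2 (20 µg), Ero1l, an ER oxidase, rose (1.17) and Dnajc3 (-1.22) and Canx (-1.16) fell, and without the first tumor none was called. Of 11 genes of ER degradation and translocation, Derl3, which also marks secretory cells, was the 1 called against PBS, after 2 doses of CDN2, and 1 of the 11 was called without the first tumor. Derl3 was at 3.76 and 1.03 CPM against 0.0 and 0.0876 in PBS. Of 11 stress sensors and eIF2α kinases or phosphatase genes, Eif2ak2 (PKR), an interferon-induced gene, rose after 1 dose of exoCDN2 (2.27) and after 2 doses of exoCDN2 (2.30) and CDN2 (2.00). With 2 doses of CDN2, 4 of these genes fell, led by Atf6 (-1.15), Eif2ak3, which encodes PERK (-1.78), and Eif2ak4, which encodes GCN2 (-1.18). Without the first tumor, 2 were called lower.

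Immediate early genes, which cells switch on within minutes of many stimuli, were called in larger numbers. Of 12, 6 rose with CDN2 (20 µg), led by Jun (3.05), Junb (2.74) and Fos (1.88), 6 with CDN2 (100 µg) and 3 with exoCDN2 after 1 dose. After 2 doses, 11 rose with CDN2 (10 without its first tumor) and 7 with exoCDN2. Interferon stimulated genes were called higher in 9 of 10 in each single-dose agonist group and 10 of 10 in each group of known amount after 2 doses. Of 6 cell death genes tied to CHOP, the BH3-only gene Bbc3 rose after 1 dose of CDN2 (1.23 at 20 µg and 1.37 at 100 µg), and Casp12, a caspase linked to the ER (5.12 and 5.67), and Pmaip1 (4.34 and 2.47) rose after 2 doses of CDN2 and exoCDN2. PBS tumors had less of some of these genes after 2 doses than after 1, with Casp12 at -3.56 and 7 of the 10 interferon genes called lower, which bears on every fold against PBS after 2 doses. With CDN2 in an amount not given, 8 interferon genes, Casp12 (3.28) and the immediate early gene Fos (1.20) rose, and no gene of the other pathway lists was called. Unloaded EVs gave no call in any list. Of 8 genes of the cytosolic heat shock response, 3 rose after 2 doses of CDN2, led by Hspb1 (4.80), 1 rose after CDN2 (100 µg), and none rose with exoCDN2. Without the first tumor given 2 doses of CDN2, 3 cell death genes and 3 heat shock genes were called higher.

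**Figure D4:**
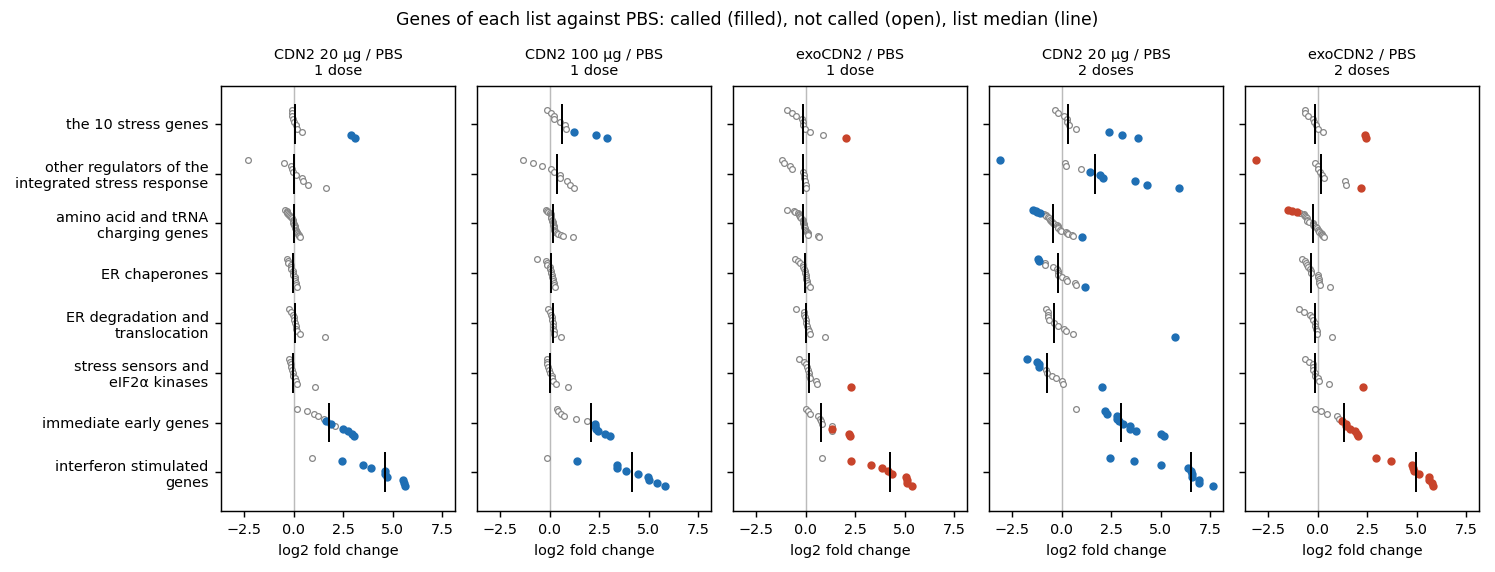
Log2 fold change against PBS (horizontal axis) of every tested gene of 8 lists (vertical axis) in 5 comparisons; filled points are called, open points are not, and the black line is the median of the list. Called genes of the stress lists appear mainly after 2 doses of CDN2 (20 µg), where 20.0% of all genes rose and 10.6% fell. In all 5 comparisons, 9 or 10 of the 10 interferon genes are called higher.

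Markers of other cells also differed between the groups. The summed level of 6 neutrophil markers was 4.49 and 4.73 CPM in PBS after 1 dose, 13.53 and 31.53 with CDN2 (20 µg), 14.01 and 17.14 with CDN2 (100 µg), and 63.96 and 38.85 with exoCDN2. After 2 doses it was 870.0 and 197.6 with CDN2 and 60.26 and 17.77 with exoCDN2, and 6 and 5 of the 6 markers were called higher than in PBS. The 7 macrophage markers summed to 161.2 and 140.5 CPM in PBS, 684.2 and 369.1 with CDN2 and 410.9 and 276.8 with exoCDN2, and 5 and 3 of 7 were called higher. With CDN2, Mrc1 was called lower, and without the first tumor 3 of the 7 were called higher and none lower. After 1 dose the macrophage sums were 255.1 and 323.7 CPM in PBS, 244.3 and 484.4 with CDN2 (20 µg), 232.2 and 258.5 with CDN2 (100 µg), and 203.6 and 205.2 with exoCDN2, with no marker called. With 2 doses of CDN2 (20 µg) and of exoCDN2, the first tumor, which had more Atf3, also had the higher sum of both lists. The first tumor also had the higher sums of fibroblast and keratinocyte markers with both agents. Its skeletal muscle sum was higher with CDN2 but nearly equal with exoCDN2 (209.4 and 207.7 CPM). Its T and NK cell sum was lower with CDN2 (5.66 against 8.86 CPM) and higher with exoCDN2. After 1 dose of CDN2 (20 or 100 µg), the tumor with more Atf3 had the higher sums of neutrophil and macrophage markers. After 1 dose of exoCDN2, the tumor with more Atf3 had the lower sums of neutrophil, fibroblast (433.6 against 668.6 CPM) and muscle (166.9 against 525.4 CPM) markers. The fibroblast sum of the tumor with more Atf3 was lower with CDN2 (100 µg), at 628.7 against 755.7 CPM. It was higher with CDN2 (20 µg), at 413.9 against 259.6 CPM. Of the 6 T and NK cell markers, 4 and 5 were called higher, with sums of 5.66 and 8.86, and of 29.91 and 22.44 CPM, against 1.80 and 1.07 in PBS. After 1 dose, 2 neutrophil markers were called higher with CDN2 (20 µg) and 3 with exoCDN2, and 3 T and NK cell markers were called lower with CDN2 (100 µg). Without the first tumor given 2 doses of CDN2, 5 of the 6 T and NK cell markers and all 6 neutrophil markers were called higher. With CDN2 in an amount not given, 1 T and NK cell marker, Cd3e, was called higher, and the neutrophil sums were 2.59 and 5.06 CPM.

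Skeletal muscle markers summed to 4646 and 2356 CPM with 2 doses of CDN2, against 7.72 to 525.4 in all other tumors, and 5 of the 6 were called higher than in PBS. Fibroblast markers summed to 1823 and 855.7 CPM with 2 doses of CDN2 and 980.6 and 434.9 with exoCDN2, against 352.0 and 352.4 in PBS, and 4 and 2 of 6 were called higher. Without the first CDN2 tumor, 3 of the 6 muscle markers and 3 of the 6 fibroblast markers were called. Of 9 B and plasma cell markers, 5 could be tested and none was called against PBS, and the sums of the 9 lay between 49.2 and 123.7 CPM. Of 7 melanoma markers, 4 were called lower with 2 doses of CDN2, 2 without its first tumor, and none with 2 doses of exoCDN2. Endothelial markers were called lower in 4 of 5 with CDN2 (20 µg) after 1 dose, with sums of 29.91 and 30.39 CPM against 80.42 and 83.72 in PBS. Keratinocyte markers summed to 0.416 to 124.3 CPM over all tumors, and 1 of 6 was called higher with 2 doses of exoCDN2. Markers at 0 in both tumors of a group included Tnfrsf17 in most groups, Krt1 with 1 dose of CDN2 (20 µg), and Ly6g and Pou2af1 with CDN2 in an amount not given. The part of these cells in the levels of the 10 genes was not tested.

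Other genes with the most similar pattern over the 16 tumors of known amount were found by Pearson's r of log2 CPM, given as a description across tumors that share groups. For Atf3 they were Ccrl2 (0.984), Csrnp1 (0.982) and Junb (0.980). Ppp1r15a was most like Egr1 (0.969), an immediate early gene. Atf4 was most like Mthfd2 (0.985), a mitochondrial enzyme of one-carbon metabolism, and the same gene led for Chac1 (0.913). Ddit3 was most like Unc13d (0.953), Rnaset2a (0.940) and Cst7 (0.935), genes of granule release and lysosomes in blood cells. Trib3 was most like Sesn2 (0.851), a stress-induced regulator of growth signalling, and Asns like Psph (0.868), an enzyme of serine synthesis. Hspa5 was most like Arl1 (0.889), Xbp1 like Dusp9 (0.888) and Dnajb9 like Stradb (0.955), all outside the lists used here. The second genes for Atf4, Trib3 and Asns were Art5 (0.879), Gm13283 (0.833) and Hoxb9 (0.823), also outside the lists. Among the 10 genes themselves, r was 0.923 for Atf4 with Chac1, 0.870 for Atf3 with Ppp1r15a and 0.863 for Chac1 with Trib3, while it was 0.581 for Atf3 with Ddit3 and 0.131 for Atf4 with Ddit3.

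The remaining comparisons gave few calls among the 10. Between exoCDN2 and CDN2 (20 µg) after 1 dose, none was called by edgeR's quasi-likelihood test, against 0.201% of all genes higher and 0.408% lower, with 5 of the 10 at an unadjusted p under 0.05 and 2 called by DESeq2. Ddit3 gave -1.09 (SE 0.28, edgeR adjusted p = 0.076) and Trib3 -0.97 (SE 0.22, edgeR adjusted p = 0.059) there, and both groups of tumors were apart in each gene. For exoCDN2 against unloaded EVs, Atf3 alone was called, against 2.52% of all genes higher and 0.425% lower. PBS after 2 doses against PBS after 1 dose gave none of the 10 by edgeR, against 0.0473% higher and 1.05% lower, with 2 of the 10 at an unadjusted p under 0.05 and 1, Ddit3, called by DESeq2.

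The tumors given 2 doses of CDN2 in an amount not given had 22.66 and 22.93 CPM of Atf3, 38.87 and 47.27 of Ddit3 and 22.92 and 23.28 of Ppp1r15a. These lay above PBS after 2 doses and below both other 2-dose agonist groups, except for Ppp1r15a, which in exoCDN2 was lower. None of the 10 was called against PBS by edgeR's quasi-likelihood test, against 0.918% of all genes higher and 0.0409% lower, with 3 of the 10 at an unadjusted p under 0.05 and 2 called by DESeq2. The edgeR values were 1.56 (SE 0.39, adjusted p = 0.099) for Atf3, 0.99 (SE 0.28, adjusted p = 0.15) for Ddit3 and 0.86 (SE 0.22, adjusted p = 0.10) for Trib3. The second of these tumors had 7.67% of its counts on mitochondrial genes, against 1.95% to 5.12% in the others.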

How the data were processed

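RNA from 18 whole B16F10 tumors in 9 groups of 2 was sequenced. Per the study's methods, the authors filtered reads, aligned them with OSA to GRCm38 and used RSEM with Ensembl R88 gene models. They deposited expected counts, which are estimated counts per gene without normalization. These were rounded, TMM-scaled and tested with edgeR 4.0.16 (R 4.3.3), by 1 quasi-likelihood fit of 16 tumors, or of 18 tumors (17110 genes) for the group with no amount given. filterByExpr used a minimum count of 10 and a minimum total of 15. As in the study, which used DESeq2, genes were called at a ratio above 2 where p stayed under 0.05 after adjustment (Benjamini-Hochberg). The fit had 8 residual degrees of freedom and a common biological coefficient of variation of 0.22. Symbols, positions and exon lengths came from GENCODE M21. The procedure was tested on simulated data.

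Alternatives were DESeq2 1.42.0, RLE factors, no filter, no limit on the ratio, other sets of tumors in the fit, PBS tumors pooled, replicate number as a block, and each tumor left out. The lists without the first tumor given 2 doses of CDN2 and a block with crossed numbers were added after seeing the data. The 10 genes and all lists were chosen with earlier results of these data known. In each list, up to 3 called genes each way with the smallest p-values could be named, and for likeness up to 3 genes per member. Mars, Gm4189, Tulp2 and Mir5627 were named for their position. The levels of the tumors rest on counts of 344 or more for each of the 10 genes, and the limit on precision was the 2 tumors per group.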

Additional observations from a re-analysis of the deposited data

Results flagged for a closer look

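Among the genes described here, a single result stood out by the test of a difference between effects. That test called 11.7% of all genes higher and 5.16% lower with CDN2 (20 µg), and 5.12% and 1.7% with exoCDN2. The share of the genes described here that was called with CDN2 thus lay near that of all genes, and with exoCDN2 it rests on 1 gene. The change of Ddit3 at the second dose exceeded that at the first, each relative to PBS of the same number of doses, by 2.65 on the log2 scale with CDN2 (20 µg) and by 3.08 with exoCDN2. In group means, Ddit3 went from 59.43 to 177.7 CPM with CDN2 and from 27.9 to 112.7 CPM with exoCDN2, while PBS went from 45.44 to 21.67 CPM. With each of the 8 tumors left out in turn the log2 values were 2.48 to 2.75 and 2.83 to 3.29. Both tests share the 4 PBS tumors. In the same test, with the same shares of all genes, 3 of 6 neutrophil, 3 of 7 macrophage and 2 of 6 T and NK cell markers were called higher with CDN2. With exoCDN2 the counts were 0, 4 and 4. Without the first tumor given 2 doses of CDN2, the median log2 fold changes of these lists with CDN2 were 3.26, 1 and 3.09. The part of these markers in the result was not tested.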

How the results depend on the processing

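Counts of the 10 genes called moved as follows. Without a limit on the ratio they were 2 for exoCDN2 against PBS after 1 dose, 5 for CDN2 (20 µg) and 4 for exoCDN2 against PBS after 2 doses, and 5 for exoCDN2 against CDN2 after 2 doses, where 552, 8515, 3034 and 6337 of all 16927 genes were called. The last count was 4 with RLE factors (3306 of all genes) and 0 with only the groups compared (30 of all genes). For exoCDN2 against CDN2 after 1 dose, no filter gave 3, only the groups compared 3 and DESeq2 2, as calls among all genes went from 103 to 707, 354 and 383. Under the same 3 settings, CDN2 in an amount not given against PBS had 1, 1 and 2 (all genes from 164 to 713, 276 and 357), CDN2 (100 µg) against CDN2 (20 µg) 1, 1 and 1 (from 77 to 800, 335 and 398), and PBS after 2 doses against 1 dose 2, 2 and 1 (from 186 to 766, 285 and 391). For exoCDN2 against unloaded EVs, no filter and only the groups compared each gave 2 (from 499 to 1101 and 665 of all genes). With 1 tumor left out, where a lone tumor is assumed to vary like the others, the counts against PBS were 1 to 2 for CDN2 (20 µg), 0 to 2 for CDN2 (100 µg) and 0 to 0 for exoCDN2 after 1 dose, and 3 to 4 and 2 to 2 for CDN2 and exoCDN2 after 2 doses. They were 0 to 5 for exoCDN2 against CDN2 after 2 doses, 0 to 1 for exoCDN2 against unloaded EVs, and 1 to 2 for the second against the first dose of CDN2. The second against the first dose of Atf3 spanned -0.13 to 1.20 with CDN2 and -0.13 to 0.79 with exoCDN2, and of Ppp1r15a -1.63 to 0.17 with CDN2. The causes were not tested. Of the 76 other fold changes, 7 changed sign under another setting and 31 when a tumor was left out, all at most 0.45 in size. The deviations of same-numbered tumors correlated by -0.136 to 0.319 across genes in the 12 comparisons, with a mean of 0.0136 over all pairs of groups, and no label says that a number marks a shared mouse or day, so no pairing was assumed. The replicate block changed none of the counts of calls among the 10 genes, but took the calls among all genes from 103 to 0 for exoCDN2 against CDN2 after 1 dose and from 77 to 48 for CDN2 (100 µg) against CDN2 (20 µg). For CDN2 (20 µg) against PBS after 2 doses, where the correlation was -0.136, the replicate block gave 3 calls with the numbers as labelled and 3 with the numbers crossed. The lowest count behind a level was 344, so 2 tumors per group, with 8 residual degrees of freedom over all groups, limited the precision.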
